A study of Homo sapiens with 6 samples.

Results

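The ATF4-CHOP axis is a group of stress-induced transcription factors and their effectors. It was described here by 8 genes, chosen by name from the 58735 genes of the deposited expression table. ATF4, DDIT3 (which encodes CHOP), ATF3, ATF5, CEBPB and CEBPG encode basic leucine zipper (bZIP) factors, NUPR1 encodes a small chromatin-associated stress protein, and CHAC1 encodes an enzyme that breaks down glutathione. All 8 were found in the table, each as 1 protein-coding gene. Polyadenylated RNA was measured in A375 cells, an established human melanoma line, after 6 h with the solvent DMSO (3 libraries) or with CuB (3 libraries), which the series title spells out as cucurbitacin B, a plant triterpenoid. The CuB dose is uncertain: the protocol text has 0.2 µM, while the names of the libraries have 100 nM. Both groups are the same cell line with no other agent or allele named. No label ties the replicates to separate cultures, and the p-values therefore reflect only how these libraries vary, which may be technical. The series title names an EIF2α-ATF4 branch of endoplasmic reticulum stress as part of the response studied.

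ATF4 is made when stress kinases phosphorylate eIF2α: general translation then slows while the ATF4 mRNA, through short reading frames ahead of its coding sequence, is translated more. bZIP factors bind DNA as dimers, and ATF4 pairs with C/EBP factors, among them C/EBPβ and C/EBPγ, on composite elements of amino acid and redox genes. CHOP, ATF3, ATF5, NUPR1 and CHAC1 are known as genes induced downstream of ATF4, CHOP being linked to cell death under prolonged stress. These steps include control of translation and of protein stability, which mRNA levels do not show.

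The libraries held from 14845976 to 16137093 fragments assigned to genes, recovered from the FPKM values (fragments per kilobase of gene length, scaled to library size). SOX10, the neural crest factor of melanocytes and melanoma, averaged 197.8 ± 50.4 FPKM in the DMSO libraries and 217.9 ± 31.1 FPKM in the CuB libraries (SD, n = 3 per group here and below). The pigment genes MLANA, PMEL, TYR and DCT, which also mark the lineage, were near absent, with group means from 0.00675 to 0.981 FPKM. Markers of leukocytes (PTPRC), endothelium (PECAM1), fibroblasts (COL1A1) and simple epithelium (EPCAM) had group means of at most 0.397 FPKM, while KRT14, a keratin of squamous epithelium, was at 1.04 ± 0.263 and 2.14 ± 0.602 FPKM. Of 11 markers of the line 6 were tested, of which 3 rose (AXL, NGFR and EGFR) and 1 fell (S100B, from 26.4 to 6.64 FPKM). Of all tested genes 22.9% rose and 15.6% fell. KRT14 rose too, though not past the threshold under 7 of 20 other settings. EGFR did not pass without CuB replicate 2 (limma adjusted p = 0.0603) or without DMSO replicate 1 (0.0507). The part of these markers in the results was not tested. In such bulk RNA, a change in the share of cells that express a gene and a change in RNA per cell cannot be told apart.

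The 250 bases before each RefSeq transcription start on GRCh38.p14 were searched for 4 motifs of stress-induced bZIP factors. Sequence around the match is shown for CHAC1, CEBPG, ATF3 and DDIT3, 4 of the 5 genes with one, from 5′ to 3′ along the gene's strand with the match in capitals. Only bases outside annotated untranslated exons are printed, except for CHAC1, where a longer transcript covers the window and 30 bases are shown. The stretches lie at chr15:40953251-40953280 (CHAC1, plus strand), chr19:33373896-33374112 (CEBPG, plus strand), chr1:212565157-212565333 (ATF3, plus strand) and chr12:57520744-57520764 (DDIT3, minus strand).
CHAC1: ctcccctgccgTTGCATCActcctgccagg
CEBPG: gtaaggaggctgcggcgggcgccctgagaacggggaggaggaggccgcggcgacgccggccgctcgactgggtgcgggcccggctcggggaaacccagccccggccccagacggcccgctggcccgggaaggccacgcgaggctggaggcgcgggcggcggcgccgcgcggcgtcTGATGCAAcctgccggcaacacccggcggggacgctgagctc
ATF3: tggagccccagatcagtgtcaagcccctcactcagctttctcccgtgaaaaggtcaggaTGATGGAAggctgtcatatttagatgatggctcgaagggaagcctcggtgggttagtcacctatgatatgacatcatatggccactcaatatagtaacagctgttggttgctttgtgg
DDIT3: gcgcgcgcaTGACTCAcccac

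The composite element to which ATF4 and C/EBP factors bind as a pair was searched as TGATGNAA on both strands. CHAC1 held it on the opposite strand, as TTGCATCA, from 209 to 202 bases before the start. CEBPG held TGATGCAA from 42 to 35 bases before 1 of its 2 starts, and ATF3 held TGATGGAA from 191 to 184 bases before 1 of its 2 starts. Of 35116 RefSeq windows of the same length, 3.14% held a match. The AP-1 element TGANTCA, bound by JUN and FOS dimers, was found in DDIT3 as TGACTCA, before both of its starts, which lie 3 bases apart. The same match lies from 241 to 235 bases before 1 start and from 238 to 232 before the other. In ATF5 the AP-1 element lay from 188 to 182 bases before 1 of its 3 starts. It was present in 6.57% of all windows. That ATF5 window also held the C/EBP motif, TTGCNNAA, on the opposite strand as TTCTGCAA, a motif in 9.05% of all windows. The cAMP response element TGACGTCA, in 1.65% of all windows, was in none of the 14 windows of these genes. No match overlapped another. The windows of ATF4 and CEBPB held none of the 4 motifs, which says only that these letters are not in these bases. RefSeq windows were matched for 7 of the 8 genes, all but NUPR1.

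All 8 genes were higher with CuB in every library. Values were tested as log2(FPKM + 1) by limma, a linear model that shares the estimate of spread between genes. The fit covered the 13273 genes whose mean reached 1 FPKM, 7 of the 8 among them. Of these 7, all rose at an adjusted p under 0.05, where 22.9% of all tested genes rose, 15.6% fell and 38.6% changed in either direction, and 6 of the 7 rose at least 2-fold on that scale, where 4.87% of all tested genes did. The CuB libraries were all above the DMSO libraries in the 7, as in 29.8% of all tested genes. Their median log2 fold change was 2.26, beside 0.0548 over all tested genes. ATF3 had a DMSO mean under 1 FPKM and passed the filter through its CuB values alone, so it had to differ, and these counts are descriptions. The split of all calls depended on scaling: 3046 of 5118 changed genes were higher as deposited, 2021 of 5149 with equal fragment totals, 2323 of 4976 with equal FPKM sums and 2239 of 4754 with quantile normalization. The 7 genes rose under each of these. NUPR1 did not pass the filter.

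**Figure D1:**
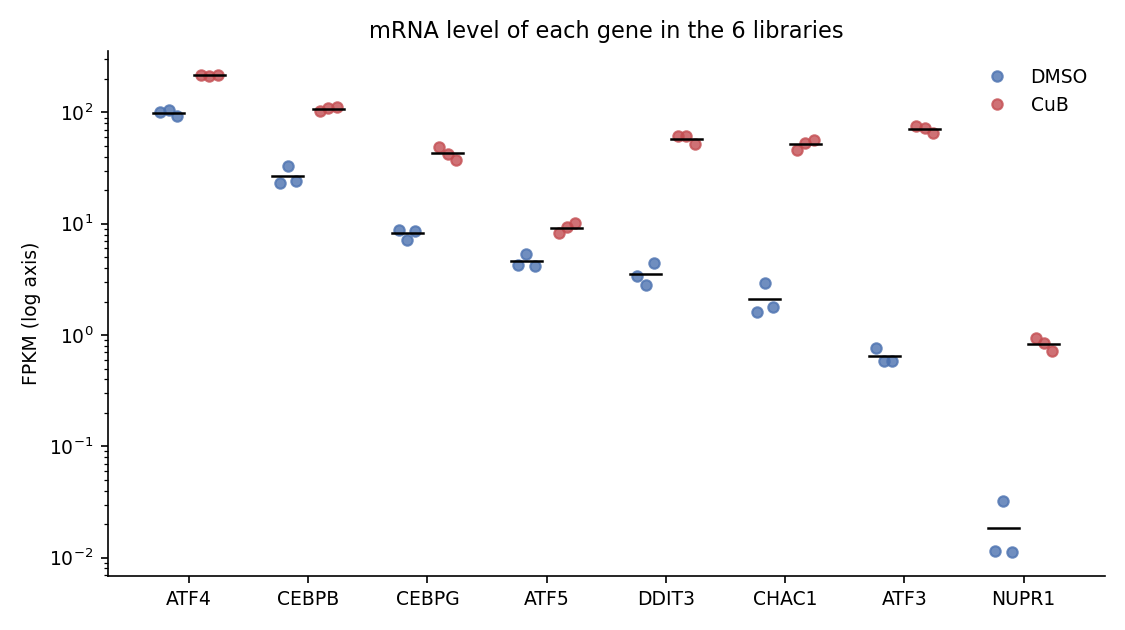
FPKM of the 8 genes (log axis) in the 3 DMSO (blue) and 3 CuB (red) libraries, with a bar at each group mean. The CuB points of every gene lie above its DMSO points, by a small step in ATF4 and ATF5 and by a wide one in ATF3, CHAC1, DDIT3 and NUPR1.

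ATF4, the factor at the head of the axis, was abundant before treatment. Its level was 100.1, 105.6 and 92.2 FPKM in the DMSO libraries and 218.6, 213.0 and 217.8 FPKM in the CuB libraries. The CuB values lay within a narrow band, with a coefficient of variation of 1.39%, and well clear of the DMSO values. The means of 99.3 ± 6.77 and 216.5 ± 3.01 FPKM differ 2.18-fold (log2 fold change 1.12, SE 0.0724, limma adjusted p = 6.75e-05). With DMSO ATF4 was already above 97.8% of tested genes, and with CuB above 99.1%. In FPKM the difference of 117.0 was the largest of the 8 genes, although 523 tested genes had a log2 rise as large or larger, ATF4 among them. ATF4 (ENSG00000128272) lies on chromosome 22 from 39519695 to 39522685 on GRCh38, and no other gene of the table overlaps it.

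DDIT3 encodes CHOP, a bZIP protein that pairs with C/EBP factors and ATF4 and keeps C/EBP from its usual sites. It was at 3.39, 2.80 and 4.41 FPKM with DMSO and at 61.5, 61.0 and 51.5 FPKM with CuB. The lowest CuB library, replicate 3, was still far above the highest DMSO library. The fold between means was 16.4 (log2 fold change 3.71, SE 0.145, limma adjusted p = 8.15e-06). From a level above 32.9% of tested genes it moved to one above 94.7% of them. The rise was the 16th largest of all tested genes.

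The 3′ part of DDIT3 (ENSG00000175197, chromosome 12 from 57516588 to 57521737, minus strand) shares 355 bases, 27.2% of its exons, with MARS on the opposite strand. MARS, the methionyl-tRNA synthetase gene, was at 32.9, 37.0 and 31.6 FPKM with DMSO and 89.95, 91.78 and 88.86 FPKM with CuB, so it was also higher in every CuB library. MBD6, also opposite, shares 58 bases and was at 8.65, 11.1 and 6.85 FPKM and then 10.01, 11.61 and 13.36 FPKM. The library kit does not mark strand, and how fragments from shared bases were counted is not given in the sources used here, so their part in the DDIT3 values was not tested. AC022506.1, a gene model inside DDIT3 on the same strand, was listed at 0 in all 6 libraries. MIR616, a microRNA gene within a DDIT3 intron, had 5 fragments over the DMSO libraries and 39 over the CuB libraries, a ratio of 8.39 (exact 95% interval 3.30 to 27.3, which covers counting error only).

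ATF3, a bZIP repressor and activator induced by many stresses, had a rise that ranked 2 among all tested genes, below JUN. Its level was 0.758, 0.590 and 0.587 FPKM with DMSO and 76.1, 71.8 and 65.5 FPKM with CuB. The DMSO libraries held 47, 39 and 37 fragments of it and the CuB libraries 4358, 4316 and 3954. The gene thus went from one of the lowest levels among tested genes, above 0.979% of them, to one above 95.9%. Genes as low as this in both groups were not tested, so its low place with DMSO follows in part from the filter. The means, 0.645 ± 0.098 and 71.1 ± 5.37 FPKM, differ 110-fold (exact 95% interval of the fragment ratio 92.5 to 133, counting error only). After adding 1 FPKM, which shrinks the change of such a low gene, the log2 fold change was 5.45 (SE 0.0924, limma adjusted p = 6.62e-07), and it was 6.78 with limma-voom on the recovered fragments. ATF3 (ENSG00000162772) lies on chromosome 1 from 212565334 to 212620777, with no overlapping gene in the table.

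ATF5, a bZIP factor that is translated under eIF2α phosphorylation much as ATF4 is, and that acts in the mitochondrial stress response, had the smallest fold of the 8 genes. It was at 4.28, 5.40 and 4.19 FPKM with DMSO and 8.22, 9.31 and 10.1 FPKM with CuB. The groups did not overlap, and the gap between DMSO replicate 2, the highest of its group, and CuB replicate 1, the lowest of its own, was wider than the range within either group. The means of 4.62 ± 0.674 and 9.21 ± 0.944 FPKM differ 1.99-fold (log2 fold change 0.86, SE 0.118, limma adjusted p = 0.00172). Of all tested genes 6.4% had a larger rise. ATF5 (ENSG00000169136, chromosome 19 from 49928702 to 49933935) shares 626 bases, 21.2% of its exons, with NUP62 on the opposite strand, a nucleoporin gene at 13.2, 16.9 and 12.9 FPKM with DMSO and 16.0, 19.2 and 18.6 FPKM with CuB. The part of these fragments in the ATF5 values was not tested.

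Both C/EBP partners of ATF4 rose. CEBPB, a factor of differentiation, inflammation and stress, was at 23.2, 32.8 and 24.1 FPKM with DMSO and 102.6, 109.4 and 111.4 FPKM with CuB. Replicate 2 stood above the other DMSO libraries, and the CuB libraries varied by only 4.28% of their mean. The fold between means was 4.04 (log2 fold change 1.99, SE 0.135, limma adjusted p = 8.23e-05). CEBPB (ENSG00000172216), a gene with 1 annotated transcript on chromosome 20 from 50190734 to 50192689, shares 231 bases with the antisense gene CEBPB-AS1, which was between 0.3536 and 0.4152 FPKM in all 6 libraries.

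CEBPG encodes C/EBPγ, a short C/EBP without a transactivation domain that pairs with ATF4 on amino acid genes. It was at 8.76, 7.17 and 8.67 FPKM with DMSO and 49.0, 42.5 and 37.7 FPKM with CuB. The CuB values were spread by 13.2% of their mean, replicate 1 high and replicate 3 low, and all lay far above the DMSO values. The fold between means was 5.25 (log2 fold change 2.26, SE 0.123, limma adjusted p = 3.26e-05). CEBPG (ENSG00000153879) lies on chromosome 19 from 33373330 to 33382686, with no overlapping gene.

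CHAC1, a γ-glutamylcyclotransferase that cleaves glutathione in the cytosol, went from 1.61, 2.91 and 1.77 FPKM with DMSO to 46.0, 53.6 and 56.8 FPKM with CuB. DMSO replicate 2 held 98 of its fragments where replicates 1 and 3 held 51 and 57. The fold between means was 24.8, from 2.10 ± 0.706 to 52.1 ± 5.59 FPKM (log2 fold change 4.12, SE 0.168, limma adjusted p = 1e-05), the 9th largest rise of all tested genes. CHAC1 (ENSG00000128965) lies on chromosome 15 from 40952962 to 40956519, with no overlapping gene.

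NUPR1, which is induced by many stresses and takes part in the response to them, was almost silent with DMSO. Its 3 DMSO libraries held 1, 3 and 1 fragments, and its 3 CuB libraries 75, 72 and 61. In FPKM these are 0.0115, 0.0323 and 0.0113 against 0.933, 0.853 and 0.719. The pooled fragment rate was 44.8 times higher with CuB (exact 95% interval 18.9 to 139, counting error only). Because its mean was under 1 FPKM it was tested only without the filter, where its log2 fold change was 0.85 (limma adjusted p = 0.00204). Even with CuB it was the lowest of the 8 genes. NUPR1 (ENSG00000176046) lies on chromosome 16 from 28532708 to 28539174.

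**Figure D2:**
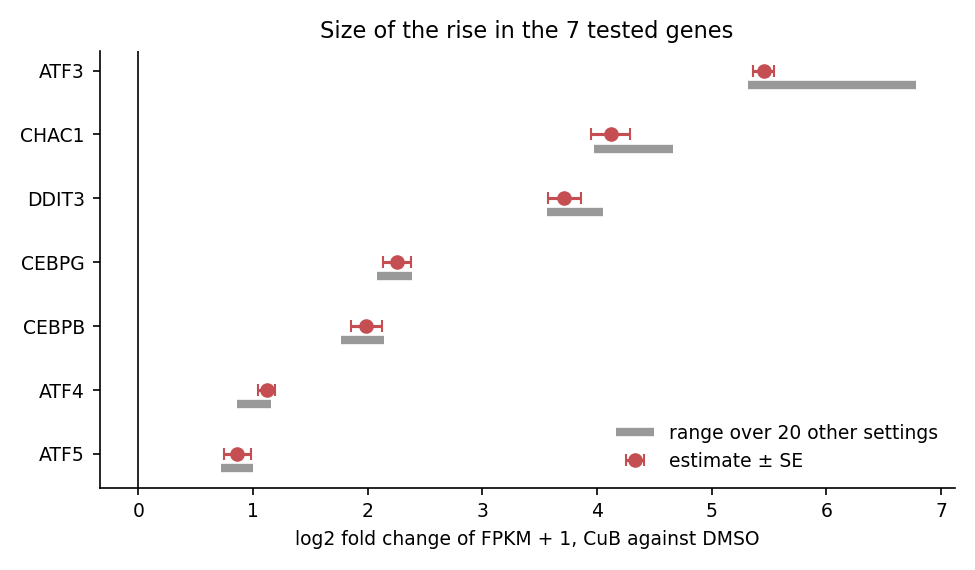
Log2 fold change of FPKM + 1 between CuB and DMSO for the 7 tested genes, as the limma estimate with its standard error (red) and the range of the estimate under 20 other settings (grey). The estimates run from 0.86 for ATF5 to 5.45 for ATF3, and no grey bar reaches 0.

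The treatment changed the order of FPKM levels. FPKM of these genes divides by the length of all annotated exons, whichever transcripts are made, so the order between genes is approximate. With DMSO the order was ATF4, CEBPB, CEBPG, ATF5, DDIT3, CHAC1, ATF3 and NUPR1, and the ranges overlapped between ATF5 and DDIT3 and between DDIT3 and CHAC1. With CuB it was ATF4, CEBPB, ATF3, DDIT3, CHAC1, CEBPG, ATF5 and NUPR1, and the ranges overlapped between DDIT3 and CHAC1 and between CHAC1 and CEBPG. ATF3 thus moved from below ATF5 and CEBPG to above them in every library.

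Ratios within a library, in which scaling cancels but differences along GC content do not, showed how unequal the rises were. DDIT3 stood at 0.0339, 0.0265 and 0.0479 of the ATF4 level with DMSO and at 0.281, 0.286 and 0.237 with CuB. Its log2 ratio to ATF4 was 2.93 higher with CuB (2.20 to 3.66, a 95% interval from the pooled spread of the log2 ratios). ATF3 gained more on ATF4, by 5.67 (5.27 to 6.06), and CHAC1 by 3.55 (2.87 to 4.24). The log2 ratio of ATF5 to ATF4 differed by -0.13, with an interval from -0.45 to 0.20 (exact permutation p = 0.5, adjusted p = 0.5). That of CEBPB to CEBPG differed by -0.36 (-1.17 to 0.45, exact permutation p = 0.4, adjusted p = 0.467). This ratio was 4.58 in DMSO replicate 2 and 2.65 and 2.78 in DMSO replicates 1 and 3. For the other 5 of the 7 ratios computed, which include DDIT3 to CEBPB at 2.03 (1.07 to 2.98) and ATF3 to DDIT3 at 2.74 (2.07 to 3.40), the exact two-sided p was 0.1, the smallest that 3 against 3 can give, or 0.14 adjusted over the 7.

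Replicates of a group differed along the GC content of the genes. In the DMSO group replicate 2 was the highest library for the 4 genes with a transcript GC content from 56.7% to 66.2% (ATF4, ATF5, CHAC1 and CEBPB) and the lowest for CEBPG (43.9%) and DDIT3 (49.7%). In the CuB group replicate 1 was the lowest library for ATF5, CHAC1 and CEBPB and the highest for CEBPG, ATF3 (46.7%), DDIT3 and ATF4. These deviations were at most 0.358 on the log2(FPKM + 1) scale, seen for CHAC1 in DMSO replicate 2, while the smallest rise among the 7 tested genes, that of ATF5, was 0.86. After a GC curve was removed from each library, the log2 fold changes were 0.79 for ATF5, 1.06 for ATF4, 1.93 for CEBPB, 2.22 for CEBPG, 3.66 for DDIT3, 4.04 for CHAC1 and 5.41 for ATF3, all with a limma adjusted p of 2.47e-05 or less.

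**Figure D3:**
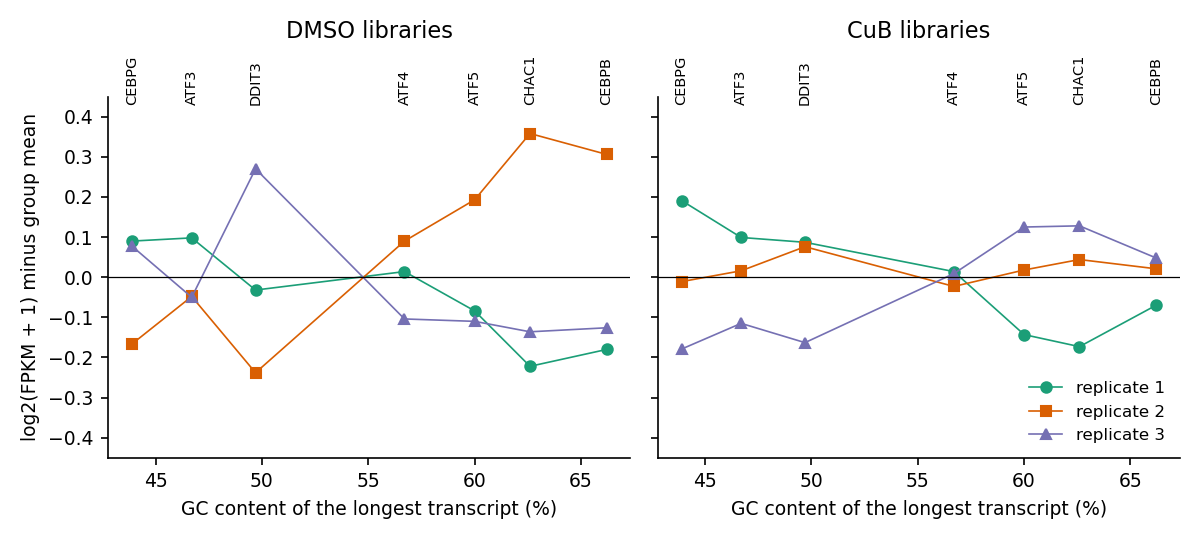
Deviation of each library from its group mean in log2(FPKM + 1) for the 7 tested genes, placed by the GC content of their longest transcript, with lines joining the values of one library. DMSO replicate 2 lies below 0 at low GC content and above 0 at high GC content, and CuB replicate 1 lies above 0 up to ATF4 and below 0 from ATF5 on.

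bZIP factors act as dimers, so the other members of the family were set beside the 6 factors. Of 47 other bZIP genes 34 were tested, and 21 of these rose, 16 of them at least 2-fold, while 2 fell (median log2 fold change 0.71). Over all tested genes these shares were 22.9%, 4.87% and 15.6%. JUN, which forms AP-1 with FOS proteins, went from 2.37 ± 0.85 to 334.0 ± 38.8 FPKM. FOSB, a partner of JUN, rose from 1.57 ± 0.453 to 32.8 ± 2.27 FPKM, and CREB5, a factor of the ATF2 subfamily, from 0.336 ± 0.0605 to 13.9 ± 2.51 FPKM. DBP, a clock output factor, fell from 1.66 ± 0.241 to 0.488 ± 0.126 FPKM, and CREB3L4, a membrane-bound factor, from 5.05 ± 0.27 to 2.66 ± 0.37 FPKM. CREB5 and JDP2 rose from DMSO means under 1 FPKM and so passed the filter through CuB alone, and DBP, with a CuB mean under 1 FPKM, passed it through DMSO alone. With a minimum mean of 5 FPKM 0 of these bZIP genes fell, but that filter leaves DBP and CREB3L4 untested. By limma-voom 2 fell. With the GC correction 4 fell, and with equal fragment totals also 4, CREBZF and CREBL2 being added in both. CEBPD, the C/EBP gene nearest to CEBPB in known roles, was at 4.89 ± 1.35 and 5.80 ± 0.717 FPKM and did not pass (log2 fold change 0.23, SE 0.172, limma adjusted p = 0.332), but it passed without DMSO replicate 2 (0.40, adjusted p = 0.0383). CEBPA had group means of 0.452 and 0.318 FPKM.

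Summed over all 53 bZIP genes, mRNA went from 541.1, 605.5 and 527.9 FPKM with DMSO to 1968, 2113 and 2161 FPKM with CuB. The 6 factors of the axis made up 25.6% ± 0.296 of that sum with DMSO and 24.4% ± 1.71 with CuB (exact permutation p = 0.4, two-sided, adjusted p = 0.4 over 7 shares). Within it the share of ATF4 went from 17.8% ± 0.607 to 10.4% ± 0.593 although its own level rose. By group means ATF4 moved from rank 1 among bZIP mRNAs to rank 3, below JUN and JUNB. Its order with FOSL1, another bZIP gene, was not settled with CuB, at means of 216.5 (ATF4) and 214.7 FPKM (FOSL1). FOSL1 was lower than ATF4 in CuB replicate 1 (203.5 against 218.6 FPKM). It was higher in replicates 2 (214.8 against 213.0) and 3 (225.8 against 217.8). ATF3 went from 0.116% ± 0.0218 to 3.43% ± 0.421, from rank 41 to rank 7, and DDIT3 from 0.642% ± 0.187 to 2.80% ± 0.378, from rank 28 to rank 10. CEBPB was at rank 6 in both groups, with 4.76% ± 0.595 and 5.18% ± 0.0295. The groups did not overlap in the shares of ATF4, DDIT3, ATF3, ATF5 and CEBPG (exact permutation p = 0.1, the smallest possible, adjusted p = 0.14).

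**Figure D4:**
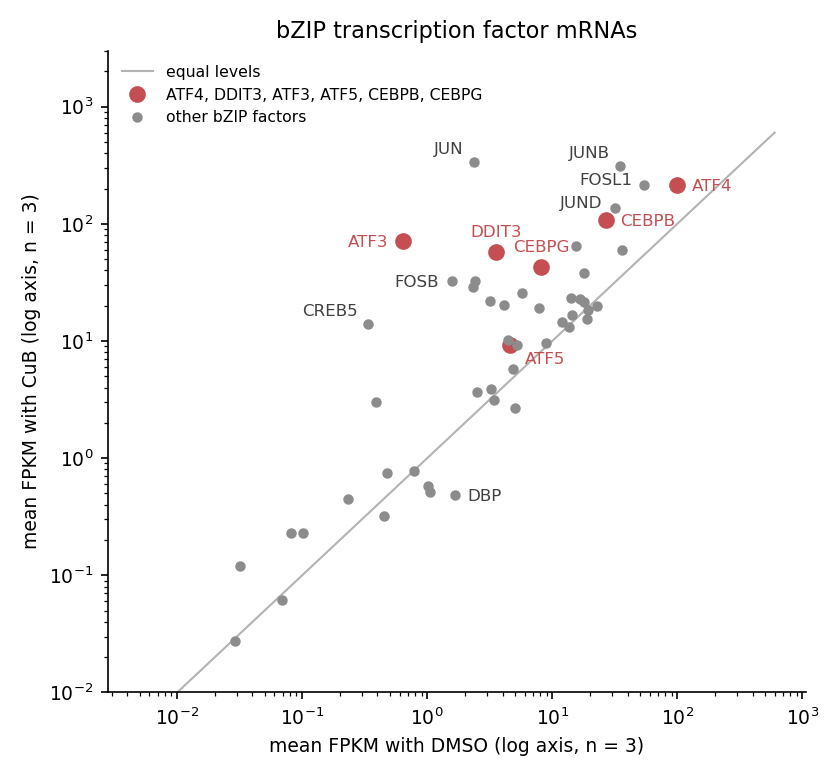
Mean FPKM of bZIP genes with DMSO (x axis) and with CuB (y axis), both on log axes, n = 3 per group, with the 6 factors of the axis in red, other bZIP genes with a value above 0 in both groups in grey, and a line of equal levels. ATF4 and ATF5 lie close above the line, and JUN, ATF3 and CREB5 lie farthest above it.

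The genes around the axis were followed by lists. Upstream, of 14 genes for eIF2 subunits, kinases and regulators 4 rose and 3 fell (median 0.20), shares of the same order as the 22.9% and 15.6% of all tested genes. PPP1R15A, the stress-induced phosphatase subunit that reverses eIF2α phosphorylation, rose by 3.65 on the log2 scale, its constitutive counterpart PPP1R15B by 1.05, and EIF2S2, which encodes eIF2β, by 0.89. The 3 that fell were the kinase genes EIF2AK4 (GCN2, log2 fold change -0.37), EIF2AK2 (PKR, -0.36) and EIF2AK1 (HRI, -0.34). EIF2AK3, which encodes PERK, was at 3.52 ± 0.585 and 4.38 ± 0.224 FPKM (limma adjusted p = 0.119, and 0.0397 with the GC correction), and EIF2S1, which encodes eIF2α, had an adjusted p = 0.0504 from limma. None of the 3 falls passed without DMSO replicate 1, DMSO replicate 3, CuB replicate 2 or CuB replicate 3 (limma adjusted p from 0.0595 to 0.165). EIF2S1 passed under 4 other settings, among them the GC correction (adjusted p = 0.00281).

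Among 8 genes that act on ATF4, CHOP or C/EBP proteins 7 were tested, 3 rose and 1 fell, beside 22.9% and 15.6% of all tested genes. TRIB3, a pseudokinase that is induced by ATF4 and CHOP and restrains both, rose from 16.9 ± 2.59 to 159.6 ± 4.42 FPKM. EP300, an acetyltransferase that binds ATF4, rose from 9.20 ± 0.281 to 16.5 ± 0.426 FPKM, and TRIB1, which directs C/EBP proteins to degradation, from 13.7 ± 0.549 to 23.4 ± 1.22 FPKM. TRIB2, which acts on C/EBP proteins as TRIB1 does, fell from 69.4 ± 1.01 to 12.4 ± 0.651 FPKM. BTRC and FBXW11, the ubiquitin ligase adaptors for ATF4, had log2 fold changes of 0.01 (SE 0.104) and -0.06 (SE 0.0948), with limma adjusted p = 0.948 and 0.638.

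Downstream, 29 of 31 tested ATF4 target enzymes, transporters and signals rose and 1 fell, with a median log2 fold change of 1.80, and 27 of the 29 rose at least 2-fold (22.9%, 15.6% and 4.87% of all tested genes rose, fell and rose 2-fold). SESN2, which restrains mTORC1, went from 5.88 ± 0.802 to 83.2 ± 6.66 FPKM, and CTH, the last enzyme of cysteine synthesis, from 2.77 ± 0.183 to 34.2 ± 4.37 FPKM. ALDH18A1, the first enzyme of proline synthesis, fell from 52.4 ± 0.968 to 43.8 ± 1.06 FPKM, but not past the threshold under 6 of the 20 other settings (limma adjusted p from 0.0611 to 0.107). EIF4EBP1, an inhibitor of cap-dependent translation, was at 104.3 ± 28.5 and 145.7 ± 19.4 FPKM (log2 fold change 0.50, limma adjusted p = 0.0776). It passed under 4 other settings (adjusted p from 0.000107 to 0.0483), among them without DMSO replicate 2, where its log2 fold change was 0.71. Of the 29 that rose, 4 had a DMSO mean under 1 FPKM and passed the filter through CuB alone. This list was chosen with earlier results of these data known, and so is no independent evidence of its direction.

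Of 7 genes linked to CHOP 4 rose and 0 fell, by limma, where 22.9% and 15.6% of all tested genes did. Those that rose were PPP1R15A, TRIB3, BBC3, the BH3-only protein PUMA (2.62 ± 1.13 to 17.2 ± 3.82 FPKM), and TNFRSF10B, the death receptor DR5 (27.4 ± 0.536 to 72.1 ± 2.03 FPKM). The other 3 were ERO1A, an oxidase of the endoplasmic reticulum, at 11.1 ± 0.922 and 10.9 ± 0.988 FPKM, BCL2L11, the BH3-only protein BIM, at 2.04 ± 0.171 and 1.83 ± 0.117 FPKM, and BCL2, which CHOP is known to repress, at 0.998 ± 0.0378 and 1.28 ± 0.115 FPKM. Their limma adjusted p-values were 0.866, 0.453 and 0.218. At an unadjusted p under 0.05, and by limma-voom, 0 fell as well.

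Of 10 mitochondrial chaperones and proteases of the response in which ATF5 acts 4 rose and 0 fell by limma (median 0.26), and none rose 2-fold. Of all tested genes 22.9% rose, 4.87% rose 2-fold, 15.6% fell and 38.6% changed in either direction. HSPA9, the mitochondrial HSP70, rose by 0.99 on the log2 scale, LONP1, a matrix protease, by 0.81, DNAJA3, a co-chaperone, by 0.54 and HSPD1, the chaperonin HSP60, by 0.48, a call lost with quantile normalization (0.32, limma adjusted p = 0.0899). HSPE1, the partner of HSPD1, had a log2 fold change of -0.26 (SE 0.0932, limma adjusted p = 0.0626) and was a gene whose CuB values all lay below its DMSO values. It was the 1 gene of the list below DMSO at an unadjusted p under 0.05. It passed under 6 other settings (limma adjusted p from 0.0073 to 0.0209). By limma-voom 0 of the list fell, and with the GC correction 2 did.

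Around CHAC1, 7 of 10 genes of glutathione synthesis and breakdown were tested, and 1 rose and 1 fell, beside 22.9% and 15.6% of all tested genes. GCLM, the modifier subunit of the rate-limiting enzyme of glutathione synthesis, rose from 6.55 ± 1.11 to 15.7 ± 2.32 FPKM. GGT7, a γ-glutamyltransferase family member, went from 25.3 ± 5.48 to 17.03 ± 2.91 FPKM, at a limma adjusted p = 0.0489 that missed the threshold under 8 of the 20 other settings (0.051 to 0.123). CHAC2, the constitutive counterpart of CHAC1, was at 10.9 ± 2.17 and 12.4 ± 1.78 FPKM (log2 fold change 0.19, SE 0.162, limma adjusted p = 0.392). With DMSO the CHAC2 level was above that of CHAC1 in the means, and with CuB below it. Of 10 inflammatory targets of C/EBPβ only CXCL8, a neutrophil chemokine (32.1 ± 11.2 to 551.5 ± 150 FPKM), and PTX3, a soluble pattern receptor (4.63 ± 1.17 to 59.1 ± 2.87 FPKM), were high enough to be tested. Both rose, where 22.9% of all tested genes did. The other 8 were not tested, so these 2 do not speak for the list.

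**Figure D5:**
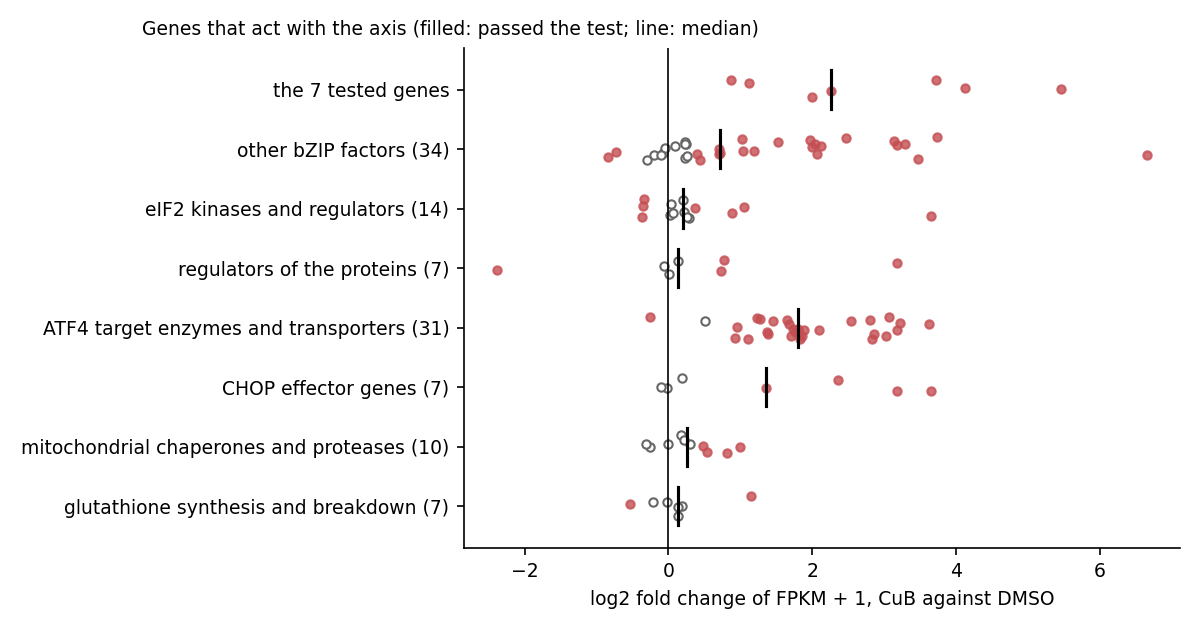
Log2 fold change of FPKM + 1 between CuB and DMSO for the 7 tested genes of the axis and for 7 lists of genes that act with them, with the number tested in brackets (filled points passed the limma test, open points did not, and the line is the median). The ATF4 targets have a median of 1.80, while the mitochondrial and glutathione lists are centred near 0.26 and 0.13.

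For each gene the tested genes with the most similar profile over the 6 libraries were taken as those with the smallest root mean square difference in log2(FPKM + 1) after each gene was centred. Pearson's r was at least 0.997 in each pair. Such values follow from the choice of the nearest genes and from the step between the groups, and are descriptions only. ATF4 was nearest to ANO1, a chloride channel (0.0369), and SNHG8, a small nucleolar RNA host gene (0.0402). ATF5 was nearest to ZNF263 (0.023) and FANCE (0.0276), and CEBPB to SQSTM1, an autophagy receptor (0.0475), and PDLIM7 (0.0698). CEBPG was nearest to E2F7, a repressor of cell cycle genes (0.0376), and CYP1B1 (0.0489). The genes with large rises had more distant neighbours. DDIT3 was nearest to BIRC3, an inhibitor of apoptosis (0.13), and NUAK2, a kinase (0.186), CHAC1 to EGR1 (0.157) and IL11 (0.158), and ATF3 to EGR2, a zinc finger factor (0.0881), and IL24, a cytokine (0.32).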

How the data were processed

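Polyadenylated RNA of 6 A375 libraries was made into libraries with a TruSeq RNA kit, per the labels' protocols. The authors deposited FPKM per gene. GRCh38 is the build named in the submitters' processing notes. Which aligner, counter and library scaling were used is not stated in the labels or the file header. All 58735 gene identifiers had the coordinates of GENCODE 29, used for exons and GC content (known for 99.94% of tested genes). Fragments were recovered from FPKM and gene length: 100% of values above 0 were whole within 0.01 of a fragment. The library size implied by FPKM was 1.0327 to 1.0364 times the fragment total with DMSO and 0.914 to 0.9265 times with CuB. 0 columns of sample values were left unused.

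Values were tested as log2(FPKM + 1) in R 4.3.3 with limma 3.58.1 (variance trend, 4 residual degrees of freedom, no replicate block) for genes averaging 1 FPKM or more over the 6 libraries, with Benjamini-Hochberg adjustment over all tested genes at 0.05. The fit was also run on simulated data in which a small set of genes was raised and none lowered. There it recovered large changes, missed most small ones, and made a larger share of false calls than the threshold of 0.05 sets. In the data 5118 of 13273 genes changed, in both directions, so these shares need not hold here. Calls near the threshold are the least certain. Ratios within libraries were compared by exact permutation tests (scipy 1.17.1). Fragment ratios have exact 95% intervals. Plots were drawn with matplotlib 3.10.9.

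The genes named are the 8 genes of the axis, up to 3 passing genes in each direction of each list, genes that act directly on the axis, overlapping genes and the 2 nearest profiles per gene. A few others were added with their values already known. The members and lists were chosen with earlier results of these data known.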

Additional observations from a re-analysis of the deposited data

How the results depend on the processing

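The 7 tested genes rose past the threshold under all 20 other settings, with log2 fold changes from 0.86 to 1.16 for ATF4, 3.56 to 4.05 for DDIT3, 5.32 to 6.78 for ATF3, 0.72 to 1.0 for ATF5, 1.77 to 2.14 for CEBPB, 2.08 to 2.39 for CEBPG and 3.97 to 4.66 for CHAC1. The settings were other pseudocounts (0.1, 0.5), other filters (none, or a mean of 5 FPKM), 4 rescalings (equal sums, median of ratios, quantile normalization, equal fragment totals), limma without the trend or with robust hyperparameters, voom, the replicate block, a GC correction (lowess, span 0.3) with and without the block, and each library left out. Equal fragment totals moved the median of all tested genes by -0.139 on the log2 scale. NUPR1 (0.85) was tested, and passed, only without the filter. Of all tested genes 5118 changed and 3046 rose. A minimum of 5 FPKM gave 3250 changed, equal fragment totals 2021 rising, and leaving out 1 library from 3262 to 5755 changed and from 1965 to 3443 rising, lowest in both without CuB replicate 2. The cause of these differences was not tested.

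Of 320 list counts under other settings 285 were within 1.5 times the reported count, and of the other 35, 33 were counts of 0 to 4 falling genes. The eIF2 list had 7 rising with the GC correction, and the C/EBPβ targets 4 rising without the filter. Same-numbered replicates did not deviate together (correlations 0.269, 0.118 and -0.357), so the numbers were not taken as pairs. With the replicate block 4443 genes changed and 2647 rose, and ATF4 had a limma adjusted p of 0.000639. Depth limits NUPR1, with 5 DMSO fragments in all.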

Other observations

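Several targets of ATF4 that encode secreted factors were nearly silent with DMSO, and were picked with their values known. INHBE, an activin subunit, had 1, 6 and 3 fragments in the DMSO libraries and 107, 129 and 156 in the CuB libraries, a ratio of 42.2 (exact 95% interval 22.7 to 88.6, counting error only). FGF21, a metabolic hormone, had 0 fragments with DMSO and 5, 4 and 6 with CuB, at least 5.38-fold higher when the DMSO group is set to 3 fragments in all. ADM2, a peptide of the calcitonin family, was at 0.534 ± 0.194 and 11.9 ± 1.75 FPKM, and GDF15 at 1.53 ± 0.726 and 19.1 ± 1.85 FPKM.

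ASNS, asparagine synthetase and a standard ATF4 target, was at 0.336, 0.521 and 0.431 FPKM with DMSO and 3.63, 3.88 and 3.23 FPKM with CuB, a fragment ratio of 8.29 (6.65 to 10.4), while PSAT1, of serine synthesis, was at 73.5 ± 6.91 and 246.4 ± 35.9 FPKM. IL6, a target of C/EBPβ, had 1 fragment over the DMSO libraries and 31 over the CuB libraries, a ratio of 33.3 (5.56 to 1360), and was at most 0.512 FPKM. IL4I1, which shares 75 exon bases with ATF5 on the opposite strand, had 18 and 104 fragments, a ratio of 6.22 (3.75 to 10.9).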
